A study of Mus musculus with 3 samples.

Results

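Ccl11 and Ccl24, the genes of the chemokines eotaxin-1 and eotaxin-2, and Ccr3, Il5ra and Siglecf, the genes of 3 receptors carried by eosinophils, were followed through mouse lung by library and by cell type. They were chosen by gene symbol, and each symbol matched 1 of the 32285 genes in the count tables, so that 5 of 32285 genes are described. The tables hold counts of unique molecular identifiers (UMIs, the tags that mark single captured RNA molecules) per gene and cell barcode from single-cell RNA sequencing of the 3' ends of transcripts. There were 3 libraries, 1 for each treatment label. The PD00 library came from mouse lung labelled with PD00, which the study's title describes as a peptidomimetic, the Model library from lung labelled Model, and the Control library from lung labelled Control. The title names OVA as the inducing agent, and the labels do not say whether the PD00 animals also received OVA. All 3 libraries carry an age of 3 months, and the source label calls the tissue healthy in every one. The labels give neither strain, sex, the route or timing of OVA or PD00, nor the number of animals per library. With 1 library per label no difference has a replicate check. The 95% intervals below are exact Poisson intervals for UMI counts, exact binomial (Clopper-Pearson) intervals for shares of cells and exact conditional intervals for ratios, and they cover counting error only.

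Eotaxins are secreted chemokines that draw eosinophils out of blood into tissue by binding Ccr3, a G protein-coupled receptor. In airway allergy they are induced in structural cells and macrophages by IL-4 and IL-13, which signal through Il4ra and Stat6. Il5ra encodes the IL-5 binding chain of the IL-5 receptor, which signals together with the shared chain Csf2rb, and in mice it is also carried by some B cells and plasma cells. Siglecf encodes an inhibitory sialic acid receptor that in mice is found on both eosinophils and alveolar macrophages.

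After filtering, 9373 PD00, 11285 Model and 9368 Control cells were kept, with a median of 4574 UMIs per cell in PD00, 4048 in Model and 5231.5 in Control. Lung genes were detected in every library. Sftpc, the surfactant protein of alveolar type 2 cells, had 37509 UMIs in PD00, 14395 in Model and 74046 in Control. Cells later named epithelium were 1.17% of PD00, 1.22% of Model and 1.31% of Control cells. The 3 libraries did not hold the same mixture of cells, as alveolar macrophages were 14.5% of PD00, 7.26% of Model and 32.2% of Control cells. A total of 111 barcodes occurred in more than 1 library. Leaving out the 200 kept cells with such a barcode kept every ratio given for all kept cells inside its interval. Cells were grouped into 43 clusters without the 5 genes, and clusters were called by the markers they resemble. These names were rebuilt here and are not the authors' annotation, and the thresholds for them were set after seeing the data. Clusters left without a name, because they matched no list or mixed markers of several classes, held 3.15% of PD00, 12.6% of Model and 1.12% of Control cells.

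**Figure D1:**
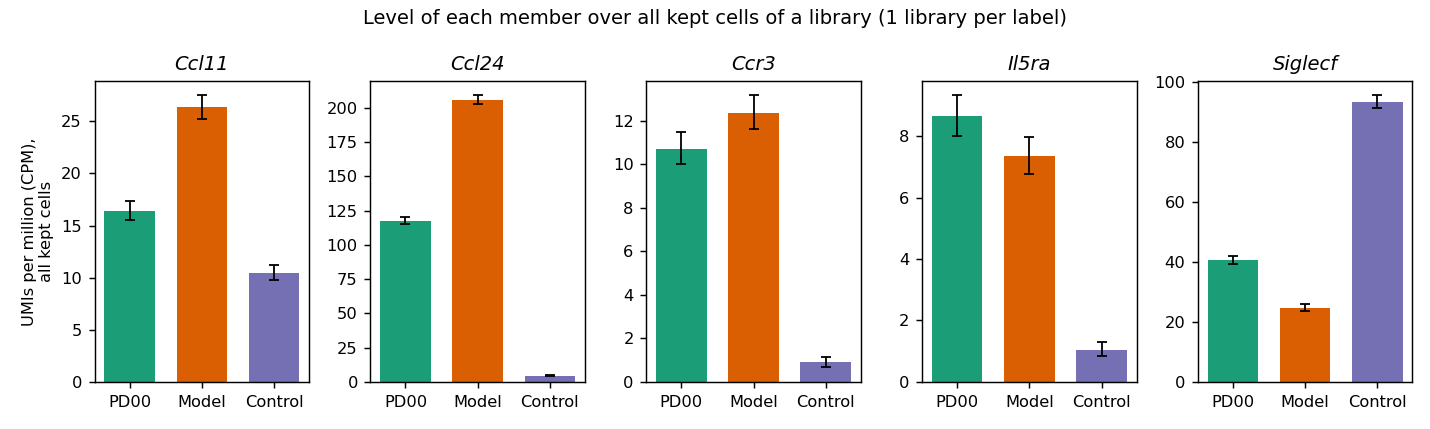
Counts per 1000000 UMIs (CPM) of each of the 5 genes over all kept cells, by library, with 95% Poisson intervals for counting error and an axis from 0 for each gene. Ccl11, Ccl24, Ccr3 and Il5ra stood higher in PD00 and in Model than in Control, and Siglecf stood highest in Control at 93.2 CPM.

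Over all kept cells of a library, 4 of the 5 genes were more than 2-fold higher in Model than in Control and 1, Siglecf, was more than 2-fold lower. Among the 15438 genes with at least 50 UMIs over both libraries, 6.94% were past 2-fold higher and 8.05% past 2-fold lower. Between PD00 and Model 0 of the 5 genes were past 2-fold in either direction, where 1.25% of 15253 genes were past it higher and 3.19% lower. Between PD00 and Control 3 were past it higher (Ccl24, Ccr3 and Il5ra) and 1, Siglecf, lower, where 5.70% of 15285 genes were past it higher and 9.09% lower. Model appears in 2 of these comparisons and Control in 2, so they are not independent of each other. Such sums follow both the number of cells of a type and the RNA in each of them, and the levels within cell classes are therefore given for each gene.

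Ccl24 differed most. It had 9044 UMIs in PD00, 16405 in Model and 353 in Control, which is 118 counts per 1000000 UMIs (CPM, 115 to 120) in PD00, 206 CPM (203 to 209) in Model and 4.57 CPM (4.11 to 5.07) in Control. A UMI was found in 16.0% of PD00, 20.3% of Model and 1.65% of Control cells. Both PD00 and Model were thus far above Control, with PD00 below Model. The Model to Control ratio was 45.0 (40.5 to 50.2), the PD00 to Control ratio 25.7 (23.1 to 28.7), and PD00 was 1.75-fold lower than Model (ratio 0.571, 0.557 to 0.586). With every cell thinned to 500 UMIs the Model to Control ratio was 20.8 and the PD00 to Control ratio 11.6, and with equal weight for each of 14 cell classes they were 4.69 and 2.63.

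Ccl11 had 1260 UMIs in PD00, 2099 in Model and 808 in Control, or 16.4 CPM (15.5 to 17.3) in PD00, 26.3 CPM (25.2 to 27.5) in Model and 10.5 CPM (9.75 to 11.2) in Control. It came from few cells, with a UMI in 1.82% of PD00, 2.29% of Model and 1.55% of Control cells, and as many as 85, 168 and 41 UMIs in a single PD00, Model and Control cell. The Model to Control ratio was 2.52 (2.32 to 2.73), the PD00 to Control ratio 1.57 (1.43 to 1.71), and PD00 was 1.61-fold lower than Model (ratio 0.622, 0.580 to 0.667). Thinned to 500 UMIs per cell, the Model to Control ratio was 1.44, which is no longer past 2-fold, and the PD00 to Control ratio was 1.10. With equal weight for each class they were 4.25 and 2.84.

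Ccr3 had 824 UMIs in PD00, 985 in Model and 70 in Control, and Il5ra had 665 in PD00, 587 in Model and 81 in Control. The Ccr3 level was 10.7 CPM (9.99 to 11.5) in PD00, 12.4 CPM (11.6 to 13.2) in Model and 0.906 CPM (0.706 to 1.14) in Control, and the Model to Control ratio was 13.6 (10.7 to 17.6). The Il5ra level was 8.65 CPM (8.0 to 9.33) in PD00, 7.37 CPM (6.78 to 7.99) in Model and 1.05 CPM (0.833 to 1.30) in Control, a Model to Control ratio of 7.02 (5.56 to 8.98). Between PD00 and Model these receptors stood on different sides of 1. The PD00 to Model ratio was 0.867 (0.789 to 0.952) for Ccr3 and 1.17 (1.05 to 1.31) for Il5ra. The direction for Ccr3 turned to 1.07 when cells were thinned to 500 UMIs. With equal weight per class the Model to Control ratio was 1.04 for Ccr3 and 1.49 for Il5ra, neither past 2-fold.

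Siglecf ran the other way. It had 3117 UMIs in PD00, 1974 in Model and 7202 in Control, or 40.5 CPM (39.1 to 42.0) in PD00, 24.8 CPM (23.7 to 25.9) in Model and 93.2 CPM (91.1 to 95.4) in Control. It was 3.76-fold lower in Model than in Control (3.58 to 3.96), 2.30-fold lower in PD00 than in Control (2.21 to 2.40), and 1.64 times as high in PD00 as in Model (1.55 to 1.73). The Model to Control ratio was 0.266, and it was 0.512 with cells thinned to 500 UMIs and 0.771 with equal weight per class, neither past 2-fold. The PD00 to Control ratio was 0.435, against 0.740 thinned and 0.898 with equal weight per class.

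**Figure D2:**
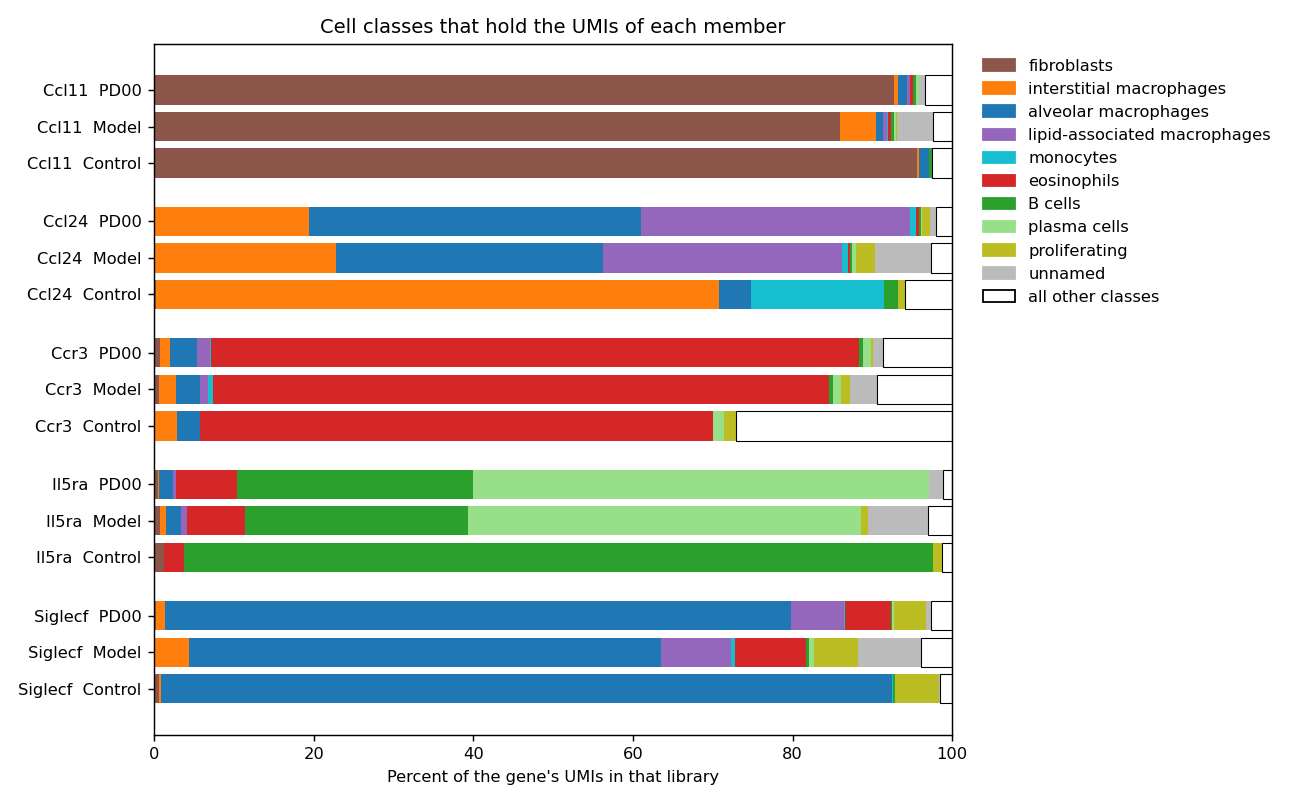
Percent of each gene's UMIs held by each cell class (colours), 1 bar per gene and library, from 0 to 100%. Ccl11 lay in fibroblasts, Ccr3 in eosinophils and most Siglecf in alveolar macrophages, while the classes that held Ccl24 and Il5ra differed between Control and the other libraries.

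Fibroblasts held nearly all Ccl11. They carried 92.7% of its UMIs in PD00 (1168), 86.0% in Model (1805) and 95.5% in Control (772). Yet fibroblasts were a smaller share of cells in PD00 and Model than in Control, with 186 PD00 cells (1.98%), 152 Model cells (1.35%) and 389 Control cells (4.15%). The level within fibroblasts was 587 CPM (554 to 622) in PD00, 870 CPM (831 to 911) in Model and 206 CPM (192 to 221) in Control. Within fibroblasts Ccl11 was therefore 4.23 times as high in Model as in Control (3.88 to 4.61), further apart than over all cells, and 2.85 times as high in PD00 as in Control (2.60 to 3.13). It was 1.48-fold lower in PD00 than in Model (1.38 to 1.60).

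The share of fibroblasts with a Ccl11 UMI was 58.1% in PD00, 64.5% in Model and 30.6% in Control, at median depths of 9326, 13002 and 9360 UMIs per PD00, Model and Control fibroblast. Thinned to 500 UMIs per cell, it was 18.3% in PD00, 23.7% in Model and 8.48% in Control. The order of the libraries was the same at equal depth. T cells, which should lack Ccl11, had a UMI in 0.601% of PD00, 0.743% of Model and 0 of 1746 Control cells, which allows a share of up to 0.172% in Control, at median depths of 3836 UMIs in PD00, 4150 in Model and 4120 in Control.

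Fibroblasts were split cell by cell into those with more UMIs of adventitial markers (such as Pi16, Dcn and Serpinf1, of the cuffs around airways and vessels) and those with more UMIs of alveolar markers (such as Npnt, Ces1d and Tcf21), a split added after the data were seen. Adventitial cells made up 44.6% of PD00, 77% of Model and 61.7% of Control fibroblasts. They held 825 Ccl11 UMIs in 83 PD00 cells, 1692 in 117 Model cells and 770 in 240 Control cells, a level of 783 CPM (731 to 839) in PD00, 1001 CPM (954 to 1050) in Model and 322 CPM (300 to 346) in Control. The adventitial level was 3.1 times as high in Model as in Control (2.85 to 3.38) and 2.43 times as high in PD00 as in Control, with a PD00 to Model ratio of 0.783 (0.719 to 0.851). The difference between Model and Control was thus also there among adventitial cells alone.

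The alveolar-marker fibroblasts differed by detection itself. Of 102 such PD00 cells 47 had a Ccl11 UMI (46.1%, 36.2 to 56.2), and 18 of 34 did in Model. Of 149 such Control cells 2 had one (1.34%, 0.163 to 4.76), an interval whose lower end is within what the T cells of Control allow. They held 343 UMIs in PD00, 112 in Model and 2 in Control, which put the PD00 level at 366 CPM (329 to 407) and the Control level at 1.47 CPM. Between 2 and 9 cells per library lay near the dividing line.

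**Figure D3:**
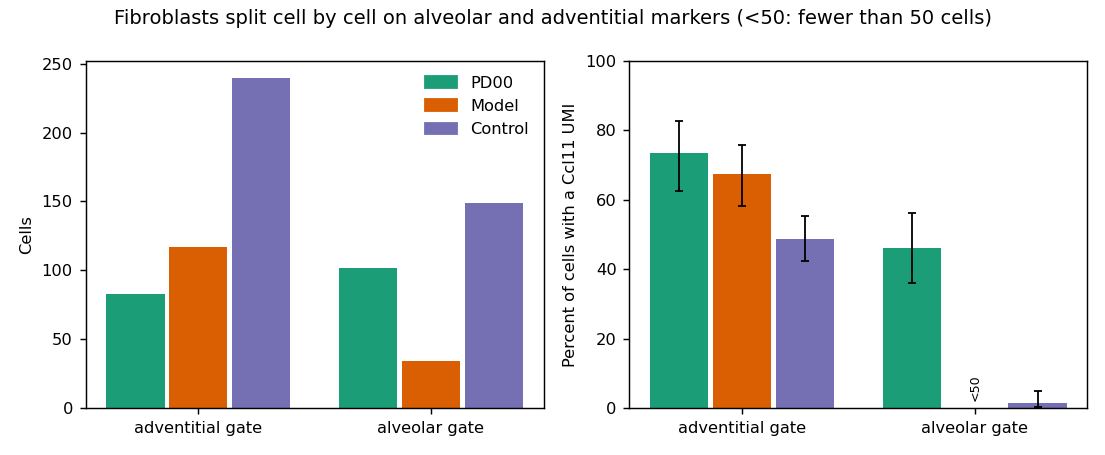
Numbers of adventitial-marker and alveolar-marker fibroblasts (left) and the percent of them with a Ccl11 UMI (right), by library, with 95% binomial intervals for counting error. Alveolar-marker cells with Ccl11 reached 46.1% in PD00, against 1.34% in Control, and the 34 Model cells are too few for a level.

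Receptor and signalling genes of IL-4 and IL-13 were read in the same fibroblasts. Il4ra, the chain shared by the IL-4 and IL-13 receptors, stood at 102 CPM in PD00, 71.8 CPM in Model and 28.5 CPM in Control. Its Model to Control ratio was 2.52, past 2-fold. Il13ra1, the other chain of the IL-13 receptor, stood at 26.6 CPM in PD00, 38.1 CPM in Model and 16.5 CPM in Control, a Model to Control ratio of 2.30. Stat6, the transcription factor below both, was level across libraries at 43.7 CPM in PD00, 40.0 CPM in Model and 38.9 CPM in Control. Of 8797 genes in fibroblasts, 2.86% were past 2-fold higher in Model than in Control. These receptor and signalling genes were named after their values were seen. They were not read apart in adventitial and alveolar cells, whose shares differed by library.

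Most cells with a Ccl11 UMI were fibroblasts in PD00 (108 of 171) and Control (119 of 145), and 98 of 258 were in Model, where many other cells held a single UMI. Clusters without a name held 10 UMIs in PD00 (4 cells), 93 in Model (53 cells, 22.5 CPM) and 0 in Control. Of the 93, 48 lay in 43 of the 957 Model cells of cluster 39 and 39 in 4 cells of cluster 36. Alveolar macrophages had 13 UMIs in PD00, 20 in Model and 10 in Control, and T cells 10 in PD00, 16 in Model and 0 in Control. Interstitial macrophages had 7 UMIs in PD00, 93 in Model and 2 in Control, and 84 of the 93 in Model lay in 6 cells of 1 cluster, cluster 27. Endothelium had 24 UMIs in PD00, 19 in Model and 7 in Control, with all 24 in 1 PD00 cell and 16 of the 19 in 1 Model cell. Smooth muscle or myofibroblasts had 2 in PD00, 1 in Model and 1 in Control. Outside fibroblasts the share of cells with a Ccl11 UMI was at most 3.72% in a named or unnamed class with at least 50 cells, apart from 3.92% of 51 PD00 mesothelial cells.

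Ccl24 lay in macrophages, and in different ones by library. Interstitial macrophages, which express complement C1q genes and sit in the lung wall, held 19.3% of its UMIs in PD00 (1750) and 22.6% in Model (3709), against 70.5% in Control (249). Alveolar macrophages, which line the airspaces, held 41.6% in PD00 (3761), 33.5% in Model (5491) and 3.97% in Control (14). Lipid-associated macrophages, which express Gpnmb, Trem2 and Spp1, held 33.7% in PD00 (3049) and 29.95% in Model (4914), and no Control cell was placed in that class. Monocytes held 0.741% in PD00, 0.756% in Model and 16.7% in Control.

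Within alveolar macrophages Ccl24 stood at 155 CPM (150 to 160) in PD00, 364 CPM (354 to 374) in Model and 0.335 CPM (0.183 to 0.562) in Control. It was found in 48.5% of 1363 PD00 cells, 62.4% of 819 Model cells and 0.465% of 3012 Control cells. At 500 UMIs per cell the shares were 5.58% in PD00, 12.1% in Model and 0.0332% in Control. In Control these cells were at or below the share of B cells, which should lack Ccl24 and had a UMI in 2.13% of PD00, 4.0% of Model and 0.690% of Control cells. Median depths were 17304 UMIs in PD00, 18226 in Model and 14435.5 in Control alveolar macrophages, and 4839.5, 4217 and 3094.5 UMIs in PD00, Model and Control B cells.

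The alveolar macrophages of Control and of the other libraries were largely different clusters. PD00 and Model cells were in cluster 41, with 932 PD00 cells at 220 CPM of Ccl24 and 749 Model cells at 394 CPM, and in cluster 40, with 427 PD00 cells at 13.5 CPM and 70 Model cells at 19.7 CPM. Control cells were nearly all in cluster 6 (1414 cells, 0.312 CPM) and cluster 9 (1549 cells, 0.375 CPM). Cluster 40, led by Chil3 and Lpl, thus held far less Ccl24 than cluster 41 in both libraries. Within cluster 41 the PD00 to Model ratio was 0.558 (0.535 to 0.582), and within cluster 40 it was 0.687 (0.437 to 1.12). Over the whole class PD00 was 2.34-fold lower than Model (2.25 to 2.44), and cluster 40 was a larger part of it in PD00.

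Lipid-associated macrophages had the highest Ccl24 level of the macrophage classes, at 345 CPM (333 to 358) in PD00 and 613 CPM (596 to 630) in Model, with a UMI in 74.7% of 455 PD00 cells and 81.0% of 394 Model cells. PD00 was 1.78-fold lower than Model there (1.70 to 1.86). The border between these cells and alveolar macrophages depended on how cells were named. When cells were placed in classes one by one from their markers, lipid-associated macrophages held 68.5% of Ccl24 in PD00 and 64.4% in Model, and alveolar macrophages 6.62% in PD00 and 4.56% in Model. With that placement the Model to Control ratio in alveolar macrophages was 405 and the PD00 to Model ratio 0.309.

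Interstitial macrophages as a whole stood at 288 CPM (275 to 302) in PD00, 419 CPM (405 to 433) in Model and 197 CPM (173 to 223) in Control, but their clusters moved in opposite directions. Cluster 27, with Cd163, F13a1 and Folr2, had 39.5 CPM in PD00 (18 UMIs in 92 cells), 84.4 CPM in Model (76 UMIs in 123 cells) and 292 CPM in Control (210 UMIs in 131 cells). Cluster 29, with H2-Aa and Cd74 of antigen presentation, had 308 CPM in PD00 (1732 UMIs in 473 cells), 457 CPM in Model (3633 UMIs in 605 cells) and 71.7 CPM in Control (39 UMIs in 76 cells). Ccl24 was 3.45-fold lower in Model than in Control in cluster 27 (ratio 0.289, 0.220 to 0.378) and 6.37 times as high in Model as in Control in cluster 29 (4.65 to 8.97). PD00 was below Model in both, at a ratio of 0.469 (0.264 to 0.791) in cluster 27 and 0.675 (0.638 to 0.715) in cluster 29.

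**Figure D4:**
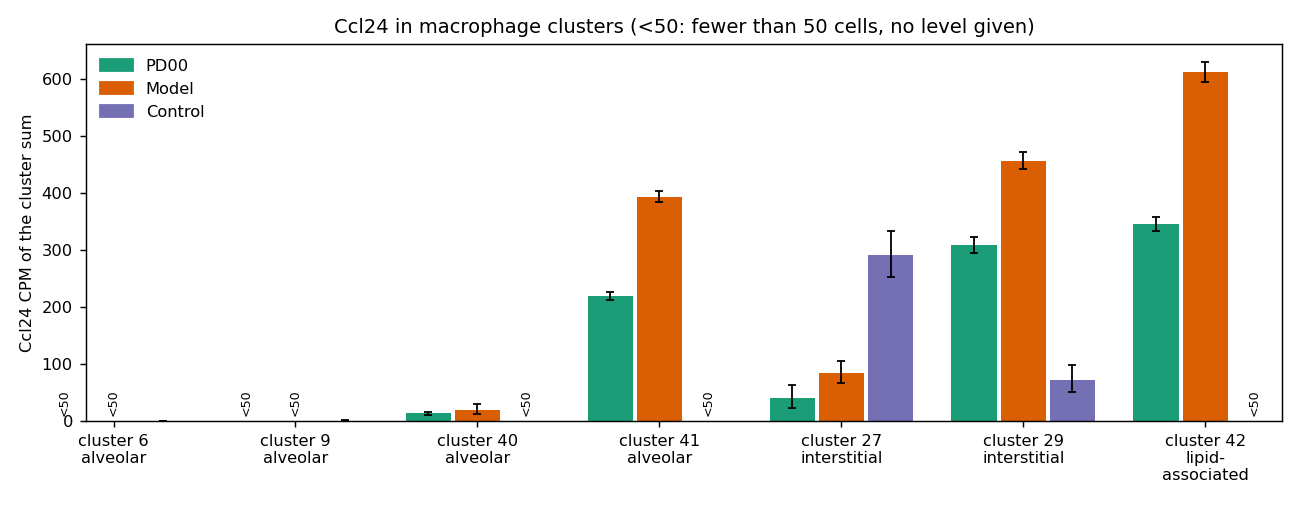
Ccl24 CPM in each macrophage cluster, by library, from 0, with 95% Poisson intervals for counting error; "<50" marks a library with fewer than 50 cells in the cluster, for which no level is given. Cluster 27 is highest in Control at 292 CPM, and clusters 29 and 41 are highest in Model at 457 and 394 CPM.

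In monocytes Ccl24 had 67 UMIs in PD00, 124 in Model and 59 in Control, a level of 76.7 CPM in PD00, 66.5 CPM in Model and 42.2 CPM in Control. In Model, 7.0% of Ccl24 UMIs lay in clusters without a name, against 0.763% in PD00 and 0 in Control, and cluster 39, with 957 Model cells, had 1058 UMIs at 333 CPM. The eotaxins were rarely seen together. A UMI of both Ccl11 and Ccl24 was found in 21 PD00, 78 Model and 0 Control cells, 3 of the 21 and 11 of the 78 being fibroblasts.

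The promoters of the receptor genes are shown because the eosinophil lineage factor GATA-1 acts through GATA sites, and the receptors are read together on eosinophils. The 250 bases before the RefSeq start of Ccr3 (chr9:124021721-124021970, plus strand), Il5ra (chr6:106749038-106749287, minus strand) and Siglecf (chr7:43351091-43351340, plus strand) follow, 5' to 3', from RefSeq for GRCm38.p6. Capitals mark a GATA motif, searched on both strands as the letters AGATAA, as the letters AGATAG, as the letters TGATAA and as the letters TGATAG.
Ccr3: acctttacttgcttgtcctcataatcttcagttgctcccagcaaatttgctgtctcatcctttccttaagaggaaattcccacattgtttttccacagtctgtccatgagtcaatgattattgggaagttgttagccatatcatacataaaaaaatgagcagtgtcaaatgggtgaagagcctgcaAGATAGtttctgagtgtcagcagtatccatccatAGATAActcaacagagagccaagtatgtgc
Il5ra: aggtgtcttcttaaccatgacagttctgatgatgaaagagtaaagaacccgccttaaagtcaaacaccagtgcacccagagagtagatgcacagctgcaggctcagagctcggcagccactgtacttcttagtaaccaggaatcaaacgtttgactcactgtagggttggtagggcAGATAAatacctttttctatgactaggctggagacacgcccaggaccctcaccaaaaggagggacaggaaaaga
Siglecf: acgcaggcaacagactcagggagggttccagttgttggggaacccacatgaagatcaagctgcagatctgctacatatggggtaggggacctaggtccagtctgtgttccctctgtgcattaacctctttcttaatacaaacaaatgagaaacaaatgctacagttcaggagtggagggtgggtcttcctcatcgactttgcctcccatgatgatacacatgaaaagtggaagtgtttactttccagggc
Ccr3 held 2 such matches, AGATAG at 64 bases and another, AGATAA, at 30 bases before the start, Il5ra held 1, AGATAA 74 bases before the start, and Siglecf held 0. Of 32851 promoter windows of this length, 26.5% held at least 1 and 6.40% held 2 or more. A match is a description of letters and not a bound site. The genes lie at chr9:124021972-124031689 (Ccr3, plus strand), chr6:106710357-106749037 (Il5ra, minus strand) and chr7:43351341-43359531 (Siglecf, plus strand), and the ligands at chr11:82057823-82062955 (Ccl11, plus strand) and chr5:135569937-135573049 (Ccl24, minus strand), all protein coding in GENCODE vM21 on GRCm38.

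Eosinophils, the cells that eotaxins draw in, made up 11.3% of PD00 (1061 cells), 9.41% of Model (1062 cells) and 0.640% of Control cells (60 cells). The share was 14.7 times as large in Model as in Control (11.3 to 19.4) and 1.20 times as large in PD00 as in Model (1.10 to 1.31). They were shallow, at a median of 820 UMIs per PD00, 818.5 per Model and 838.5 per Control cell. Of the 12 eosinophil markers, 7 were found in at least 10% of PD00 cells, 7 in at least 10% of Model cells and 6 in at least 10% of Control cells, and the list summed to 6724 CPM in PD00, 7326 CPM in Model and 3881 CPM in Control, against 717, 713 and 518 CPM in PD00, Model and Control neutrophils. Clec4a4 was at 0 in all 3 libraries, and Epx, Rnase2a and Ltc4s at 0 in the Control cells. The neutrophil marker list summed to 25298 CPM in PD00, 19768 CPM in Model and 42275 CPM in Control eosinophils, of which Retnlg alone gave 24199 CPM in PD00, 18306 CPM in Model and 40265 CPM in Control. Retnlg was lower in the neutrophils of the same libraries, at 7393 CPM in PD00, 7254 CPM in Model and 2605 CPM in Control, so it did not set neutrophils apart here. S100a8, an alarmin that defines neutrophils, was at 207 CPM in PD00, 222 CPM in Model and 398 CPM in Control eosinophils, against 54331 CPM in PD00, 48573 CPM in Model and 36424 CPM in Control neutrophils.

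Ccr3 was a gene of these cells. They held 81.2% of its UMIs in PD00 (669), 77.2% in Model (760) and 64.3% in Control (45). Within eosinophils its level was 710 CPM (658 to 766) in PD00, 782 CPM (727 to 840) in Model and 780 CPM (569 to 1043) in Control, and these intervals overlap. The Model to Control ratio was 1.0 (0.742 to 1.39) and the PD00 to Model ratio 0.909 (0.818 to 1.01). A UMI was seen in 40.8% of PD00, 45.5% of Model and 45.0% of Control eosinophils, and in 26.2%, 29.2% and 33.3% of PD00, Model and Control cells thinned to 500 UMIs. B cells, which should lack Ccr3, had a UMI in 0.568% of PD00, 0.571% of Model and 0 of 870 Control cells, which allows up to 0.345% in Control.

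The share of eosinophils with a Ccr3 UMI followed the depth of the cell. Among PD00 eosinophils it was 29.4% at 500 to 750 UMIs, 43.8% at 750 to 1000 and 53.4% at 1000 to 2000. Among Model eosinophils it was 30.8%, 42.4% and 66.8% in the same ranges, and among Control eosinophils 31.8%, 46.7% and 54.5% of 22, 15 and 22 cells. In every library the share was higher in the deeper range. Eosinophils without a Ccr3 UMI are therefore not shown to lack the receptor. Placing cells one by one from their markers left eosinophils with 44.4% of Ccr3 UMIs in PD00, 42.9% in Model and 22.9% in Control.

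A small amount of Ccr3 was found in T cells, with 29 UMIs in PD00, 43 in Model and 9 in Control. Cluster 18, of T cells with Ctla4, Tnfrsf4 and Icos, had 12 in PD00 (5.91 CPM), 31 in Model (13.3 CPM) and 7 in Control (20.8 CPM). The cells with a UMI there numbered 12 of 474 in PD00, 17 of 496 in Model and 5 of 62 in Control. The make-up of cluster 18 differed by library, with a UMI of Foxp3, the regulatory T cell factor, in 17.5% of PD00, 21.2% of Model and 54.8% of Control cells. The eosinophil genes Alox15, Prg2, Serpinb2 and F5 together had 17 UMIs in PD00, 22 in Model and 0 in Control cells of cluster 18. In eosinophils the same genes had 5162 UMIs beside 669 of Ccr3 in PD00 and 5695 beside 760 in Model. Control eosinophils had 155 beside 45. Whether free eosinophil RNA gave the Ccr3 UMIs of T cells was not tested. Neutrophils had 15 UMIs in PD00, 11 in Model and 9 in Control, between 4.83 and 10.01 CPM.

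Il5ra was mostly a gene of the B lineage. B cells held 29.6% of its UMIs in PD00 (197), 27.9% in Model (164) and 93.8% in Control (76), and plasma cells, the antibody-secreting end of that lineage, held 57.1% in PD00 (380), 49.2% in Model (289) and 0 in Control, where there were 27 plasma cells, too few for a level. Eosinophils held 7.67% in PD00 (51), 7.33% in Model (43) and 2.47% in Control (2). Plasma cells were 3.63% of PD00, 3.14% of Model and 0.288% of Control cells.

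Within B cells the Il5ra level was 49.3 CPM (42.6 to 56.6) in PD00, 36.6 CPM (31.2 to 42.6) in Model and 25.1 CPM (19.8 to 31.5) in Control. The Model to Control ratio was 1.46 (1.10 to 1.94), the PD00 to Control ratio 1.96 (1.5 to 2.59) and the PD00 to Model ratio 1.35 (1.09 to 1.67). These B cells lay in different clusters by library, as cluster 1 held 181 PD00, 270 Model and 732 Control cells and cluster 2 held 523 PD00, 605 Model and 138 Control cells. Within cluster 1 the Il5ra level was 17.7 CPM in PD00, 17.1 CPM in Model and 15.8 CPM in Control. Within cluster 2 it was 55.7 CPM in PD00, 42.2 CPM in Model and 56.8 CPM in Control. Within these clusters every interval against Control included 1, as the Model to Control ratio was 1.08 (0.569 to 1.96) in cluster 1 and 0.742 (0.519 to 1.09) in cluster 2, and the PD00 to Control ratio 1.12 (0.531 to 2.19) in cluster 1 and 0.980 (0.691 to 1.42) in cluster 2. The PD00 to Model ratio was 1.04 (0.452 to 2.31) in cluster 1 and 1.32 (1.06 to 1.65) in cluster 2. Over the whole class, a UMI was found in 19.3% of PD00, 13.8% of Model and 6.21% of Control B cells, at median depths of 4839.5, 4217 and 3094.5 UMIs in PD00, Model and Control. Thinned to 500 UMIs the shares were 1.56% in PD00, 1.49% in Model and 0.690% in Control, near the level of single UMIs. T cells, which should lack the gene, had 2 UMIs in PD00, 5 in Model and 1 in Control.

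Il5ra in plasma cells stood at 59.8 CPM (53.9 to 66.1) in PD00 and 45.7 CPM (40.5 to 51.2) in Model, a ratio of 1.31 (1.12 to 1.53), with a UMI in 55.6% of 340 PD00 and 44.4% of 354 Model cells. In eosinophils it stood at a like level, 54.2 CPM (40.3 to 71.2) in PD00, 44.2 CPM (32.0 to 59.6) in Model and 34.7 CPM (4.20 to 125) in Control, but a UMI was found in only 4.62% of PD00, 3.58% of Model and 3.33% of Control eosinophils. Plasma cells were deep, at a median of 18068.5 UMIs in PD00 and 17351 in Model. At 500 UMIs per cell the shares in plasma cells were 1.47% in PD00 and 2.26% in Model, and in eosinophils 2.17% in PD00 and 1.41% in Model. The gap in detection between these classes was thus not there at equal depth.

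Plasma cells were also split by the antibody heavy chain with most UMIs. Cells with Ighg1, the IgG1 chain, had an Il5ra UMI in 64.2% of 173 PD00 (56.5 to 71.3) and 48.5% of 204 Model cells (41.5 to 55.6). Cells with Igha, the IgA chain, had one in 39.2% of 74 PD00 (28.0 to 51.2) and 35.0% of 103 Model cells (25.8 to 45.0), and in 0 of 23 Control cells. Cells with Ighm had one in 54.3% of 81 PD00 and 55.9% of 34 Model cells. Igha cells had the lowest share of these chains in both libraries, at median depths of 15798.5 UMIs in PD00 and 15871 in Model, against 18886 in PD00 and 19272 in Model for Ighg1 cells. Csf2rb, the chain that Il5ra needs to signal, stood at 37.8 CPM in PD00 and 42.2 CPM in Model plasma cells. The PD00 to Model ratio was 0.895 there (0.749 to 1.07). Csf2rb stood at 87.5 CPM in PD00, 70.9 CPM in Model and 31.4 CPM in Control B cells as a whole class. In eosinophils it stood at 596 CPM in PD00, 528 CPM in Model and 398 CPM in Control.

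Most Siglecf UMIs lay in alveolar macrophages, which held 78.4% of them in PD00 (2444), 59.2% in Model (1168) and 91.5% in Control (6593). These cells were 14.5% of PD00, 7.26% of Model and 32.2% of Control cells, a Model to Control ratio of shares of 0.226 (0.209 to 0.244). Their Siglecf level was 101 CPM (96.9 to 105) in PD00, 77.4 CPM (73.0 to 81.9) in Model and 158 CPM (154 to 161) in Control. Within the class Siglecf was 2.04-fold lower in Model than in Control (1.91 to 2.17), 1.56-fold lower in PD00 than in Control (1.49 to 1.64) and 1.30 times as high in PD00 as in Model (1.21 to 1.40). Both the number of these cells and the level in them were lower in Model than in Control.

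As for Ccl24, the cells behind this comparison were in different clusters. Siglecf stood at 115 CPM in PD00 and 76.4 CPM in Model of cluster 40, at 94.1 CPM in PD00 and 77.5 CPM in Model of cluster 41, and at 162 CPM in cluster 6 and 153 CPM in cluster 9 of Control. Every one of the PD00 and Model values was below both Control values. A UMI was found in 71.9% of PD00, 63.7% of Model and 78.4% of Control alveolar macrophages, and at 500 UMIs per cell in 5.14% of PD00, 3.66% of Model and 7.93% of Control. B cells, which should lack it, had one in 0.710% of PD00, 0.686% of Model and 1.61% of Control cells. Lipid-associated macrophages had 23.4 CPM in PD00 and 21.6 CPM in Model, below every alveolar cluster. Placed one by one, alveolar macrophages held 44.0% of Siglecf UMIs in PD00, 19.8% in Model and 89.97% in Control.

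In eosinophils Siglecf had 179 UMIs in PD00, 175 in Model and 5 in Control, a level of 190 CPM (163 to 220) in PD00, 180 CPM (154 to 209) in Model and 86.6 CPM (28.1 to 202) in Control. Per UMI of the class this was above the alveolar macrophages of PD00 (101 CPM) and Model (77.4 CPM). The 158 CPM of Control alveolar macrophages lay inside the Control eosinophil interval. The PD00 to Model ratio was 1.06 (0.852 to 1.31) and the Model to Control ratio 2.08, with an interval of 0.874 to 6.48 that includes 1. Eosinophils held 5.74% of Siglecf UMIs in PD00, 8.87% in Model and 0.0694% in Control. Of the UMIs of all genes these shallow cells held 1.22% in PD00, 1.22% in Model and 0.0747% in Control. So although eosinophils were many more in PD00 and Model, the Siglecf sum over the lung followed the alveolar macrophages.

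**Figure D5:**
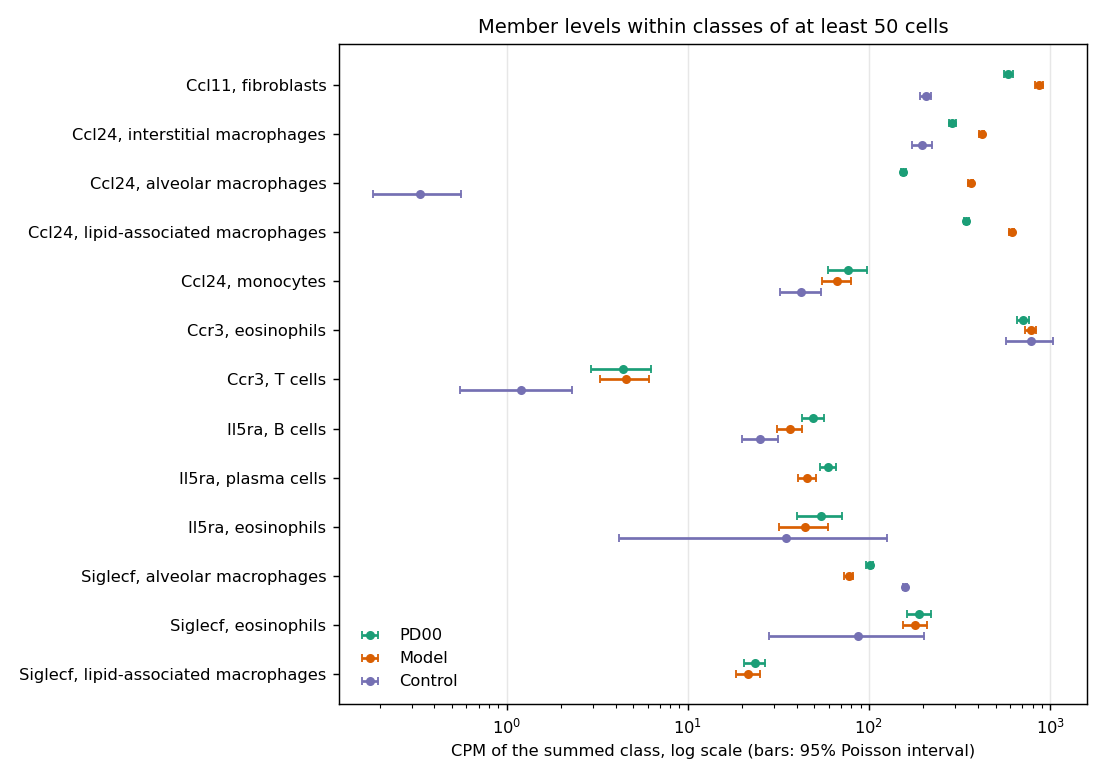
Levels of the 5 genes within the classes that hold them, as CPM of the summed class on a log axis, by library, with 95% Poisson intervals for counting error, for classes of at least 50 cells. Ccr3 in eosinophils lies between 710 and 782 CPM in all 3 libraries, while Ccl24 in alveolar macrophages is at 155 CPM in PD00 and 364 CPM in Model, against 0.335 CPM in Control.

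The 3 receptors were seldom detected in the same eosinophil. At least 1 of them was seen in 544 of 1061 PD00 (51.3%), 570 of 1062 Model (53.7%) and 30 of 60 Control eosinophils. Ccr3 and Siglecf were seen together in 69 PD00, 81 Model and 2 Control cells, Ccr3 and Il5ra in 21 PD00, 19 Model and 1 Control cell, and all 3 in 0 PD00, 4 Model and 0 Control cells. Each was also seldom seen singly in these shallow cells. Ccr3, Siglecf and Il5ra were seen in 40.8%, 14.8% and 4.62% of PD00 and 45.5%, 14.4% and 3.58% of Model eosinophils. In Control the shares were 45.0%, 6.67% and 3.33%. Rare joint detection therefore does not show that the receptors lie on different cells. Eosinophils fell into clusters 23 and 35. Ccr3 stood at 606 CPM in PD00 and 710 CPM in Model of cluster 23 and at 820 CPM in PD00 and 861 CPM in Model of cluster 35, and the Control cells, 43 in cluster 23 and 17 in cluster 35, were too few for a level.

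Other genes were compared with the 5 over the 51 sums of a class and a library with at least 50 cells, from 19 classes, among 13533 genes. As a description, the genes with the highest Pearson correlation of log2(CPM + 1) to Ccl11 were Sult5a1 (0.91), C1qtnf3 (0.91) and Svep1 (0.90), and those nearest to Ccl24 were Ocstamp (0.88), Hal (0.86) and Clec4a1 (0.85). Nearest to Ccr3 were Ear6 (0.90), Serpina11 (0.89) and Prg2 (0.88), of which Ear6 and Prg2 encode eosinophil granule proteins. Nearest to Il5ra were Ighg2b (0.77), Bank1 (0.76) and Iglc2 (0.75), all B lineage genes, and nearest to Siglecf were Ccl6 (0.85), Il1a (0.84) and Olr1 (0.83). Among the 5 genes, the correlation was 0.50 between Ccr3 and Il5ra, 0.44 between Ccr3 and Siglecf, and -0.04 between Ccl11 and Ccl24. Ear6 and Prg2 are also among the markers that named eosinophils, and Bank1 among those that named B cells. The sums share libraries and depth, so these values describe the classes and carry no test.

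The other genes of the eotaxin and IL-5 pathways were read over all kept cells from lists chosen with earlier results of these data known. Over all genes tested, 6.94% were past 2-fold higher and 8.05% past 2-fold lower in Model than in Control. Between PD00 and Model, 1.25% were past it higher and 3.19% lower. Of the 2 other Ccr3 ligands with enough UMIs, 0 were past 2-fold between Model and Control, at a median log2 ratio of -0.43 against -0.13 over all genes, and both were more than 2-fold lower in PD00 than in Model, at a median of -1.46 against 0.00. Ccl5, a T and NK cell chemokine, had 8508 UMIs in PD00, 29928 in Model and 42861 in Control, and its PD00 to Model ratio was 0.295. Ccl7, a monocyte chemokine, had 1106 UMIs in PD00, 2554 in Model and 3049 in Control, a PD00 to Model ratio of 0.449. No other Ccr3 ligand measured here was thus past 2-fold higher in Model than in Control, as Ccl11 and Ccl24 were.

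Of the 10 genes of the IL-5 axis, 2 (Il5 and Jak2) were more than 2-fold higher in Model than in Control, beside 6.94% of all genes. In the other direction 3 (Csf2, Csf2rb and Csf2rb2) were more than 2-fold lower, beside 8.05% of all genes. The median log2 ratio of the list was -0.19, and 0 were past 2-fold between PD00 and Model. Il5, the ligand of Il5ra, had 296 UMIs in PD00, 365 in Model and 57 in Control, a Model to Control ratio of 6.21 and a PD00 to Model ratio of 0.840. T cells of the Th2 kind held 80.4% of Il5 in PD00 and 72.3% in Model. Group 2 innate lymphoid cells held 91.2% in Control. Il5 is itself among the markers that named the Th2 class, so its share there is partly set by the naming. That class held 901 PD00, 758 Model and 10 Control cells. Csf2rb had 17597 UMIs in PD00, 14652 in Model and 29864 in Control, of which alveolar macrophages held 52.5% in PD00, 33.6% in Model and 88.0% in Control. Csf2ra, the GM-CSF receptor chain, had 18778 UMIs in PD00, 18722 in Model and 27953 in Control.

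Of the 10 inducers of eotaxin with enough UMIs, 3 (Il4, Il13 and Il1rl1) were more than 2-fold higher in Model than in Control, beside 6.94% of all genes. Lower by more than 2-fold was 1 (Tslp), beside 8.05% of all genes, and the median log2 ratio of the list was -0.03. Between PD00 and Model 0 of 11 were past 2-fold. Il13 had 520 UMIs in PD00, 739 in Model and 39 in Control, a Model to Control ratio of 18.4 and a PD00 to Model ratio of 0.729. Il4 had 340 UMIs in PD00, 363 in Model and 52 in Control, ratios of 6.77 and 0.970. The receptor chains had Il4ra at 6316 UMIs in PD00, 7178 in Model and 6156 in Control and Il2rg at 5366 UMIs in PD00, 6338 in Model and 6794 in Control. The cytokines thus stood far above Control, while these 2 chains over the whole lung did not pass 2-fold. Il13ra2, a receptor of IL-13, was under the minimum of 50 UMIs with 20 in PD00, 35 in Model and 0 in Control.

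Of the 10 granule and lipid mediator genes, 5 (Prg2, Epx, Ear6, Rnase2a and Alox15) were more than 2-fold higher and 3 (Ear1, Ltc4s and Alox5) more than 2-fold lower in Model than in Control, with a median log2 ratio of 1.48, and 1 (Ear1) was past 2-fold higher in PD00 than in Model. Among all genes, 6.94% were past 2-fold higher and 8.05% lower in Model than in Control, and 1.25% higher in PD00 than in Model. Eosinophils held the largest part of Prg2, Epx, Ear6 and Alox15 in PD00 and Model. Rnase2a lay mostly in macrophages, with 45.6% in PD00 and 34.2% in Model alveolar macrophages. In Control, alveolar macrophages held 91.7% of Ltc4s and 88.6% of Alox5. Ear1, a ribonuclease that alveolar macrophages also express, had 12687 UMIs in PD00, 4001 in Model and 34996 in Control. Ear2 had 88115 in PD00, 77589 in Model and 59403 in Control. Of the 10 lineage factors, 1 (Cebpe) was higher and 1 (Id2) lower in Model than in Control past 2-fold. These counts are near the shares over all genes of 6.94% and 8.05%. The median log2 ratio of the factors was -0.30, and 0 were past 2-fold between PD00 and Model. Id2 had 20842 UMIs in PD00, 19764 in Model and 54808 in Control, and Spi1, the myeloid factor PU.1, had 13619 in PD00, 13412 in Model and 24605 in Control.

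Among genes of eosinophil trafficking, Vcam1, an adhesion ligand that eosinophil integrins bind, had 2396 UMIs in PD00, 2389 in Model and 2222 in Control. Endothelium held only 6.93% of them in PD00, 12.0% in Model and 7.70% in Control. Fibroblasts held 42.1% in PD00, 29.6% in Model and 73.6% in Control, and interstitial macrophages 36.2%, 37.3% and 9.36% in that order. The sum therefore does not give the level in vessels. The integrin chains had Itgb2 at 29266 UMIs in PD00, 28571 in Model and 35297 in Control and Itgb1 at 25182 in PD00, 25788 in Model and 27207 in Control. Of the 4 genes that remove or cleave eotaxins, Ackr1 was past 2-fold higher and Ackr4 past 2-fold lower in Model than in Control, at a median log2 ratio of -0.40. Among all genes, 6.94% were past 2-fold higher and 8.05% lower in the same comparison. Ackr1, a chemokine-binding receptor, had 36 UMIs in PD00, 113 in Model and 33 in Control. Endothelium held 72.2% of these in PD00, 60.2% in Model and 21.2% in Control, where fibroblasts held 57.6%. Dpp4, the protease that clips eotaxin, had 1053 UMIs in PD00, 1259 in Model and 1430 in Control. Ackr2 had 528 in PD00, 591 in Model and 850 in Control.

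Of 7 other Siglec family genes, 0 were more than 2-fold higher and 3 (Siglece, Siglec1 and Cd22) more than 2-fold lower in Model than in Control, at a median log2 ratio of -0.69, and 0 were past it between PD00 and Model. Among all genes, 6.94% were higher and 8.05% lower past 2-fold in Model than in Control. In PD00 against Model 1.25% were higher and 3.19% lower. Cd22 had 3560 UMIs in PD00, 2945 in Model and 5896 in Control. Alveolar macrophages held the largest part of it, with 45.5% in PD00, 29.1% in Model and 87.6% in Control. B cells held 18.5% of Cd22 in Model and 5.48% in Control. Cd33 had 3817 UMIs in PD00, 3338 in Model and 3414 in Control. Of the 6 genes downstream of Siglec-F or tied to its glycan ligands, the mucins Muc5b and Muc4 were more than 2-fold higher in Model than in Control and more than 2-fold lower in PD00 than in Model. Muc5b had 966 UMIs in PD00, 2041 in Model and 6 in Control. The phosphatases that Siglecs recruit had Ptpn6 at 4883 UMIs in PD00, 5712 in Model and 7813 in Control and Ptpn11 at 3725 in PD00, 3869 in Model and 3975 in Control.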

How the data were processed

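The files hold deposited UMI counts per gene and cell barcode, unnormalized, made by the authors on the mouse build mm10 using STAR and Cell Ranger 3.1.0 per the submitters' processing notes, while the matrix headers name cellranger 5.0.0. A barcode was kept from 500 UMIs and 200 genes upward if mitochondrial genes made up no more than 20% of its UMIs, and those with a Scrublet score above 0.2 were removed as doublets. The 2000 most variable genes, without the 5 described, gave 30 principal components, 20 neighbours and Leiden clusters at resolution 2 (scanpy 1.11.5, igraph 0.11.9, Python 3.11.15), named from marker lists. CPM is a gene's UMI count divided by the total of the summed class or library, scaled to 1000000 UMIs. Ratios, medians and calls past 2-fold needed 50 UMIs over both libraries across all kept cells. The ratios were tried on simulated data with known folds and counting error only, which does not cover differences between libraries. From each list the 2 genes with the most UMIs were named, plus Il5, Il4, Il13, Csf2rb, Dpp4, Ackr1 and Vcam1. Genes named in small counts, Muc5b, Il13ra2 and the split of fibroblasts and plasma cells were chosen after values were seen. Members and lists were chosen with earlier results of these data known. Totals of kept UMIs were 76914274 in PD00, 79690635 in Model and 77245146 in Control. Other filters, scalings, thinning, equal weight per class and other cell placements were tried as alternatives. The counts over the list of trafficking genes are not reported here.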

Additional observations from a re-analysis of the deposited data

Results flagged for a closer look

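Ccl24 stood on different sides of Control in different clusters of the same libraries, and these differences between clusters were not tested. The Model to Control ratio was 0.289 in cluster 27 (interstitial macrophages with Cd163 and Folr2), 6.37 in cluster 29 (interstitial macrophages with H2-Aa and Cd74) and 278 in cluster 7 (proliferating cells, 94.4 to 1354, against 3 Control UMIs). The PD00 to Control ratio was 0.136 in cluster 27, 4.30 in cluster 29 and 63.9 in cluster 7 (21.2 to 316). Cluster 7 had 61 PD00, 79 Model and 143 Control cells and cluster 27 had 92 PD00, 123 Model and 131 Control cells, so each value rests on the cells of a single library per label.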

How the results depend on the processing

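No paired analysis was possible because each label has 1 library and the labels carry no replicate numbers. Of 147 values over all kept cells under alternatives, 106 stayed within the spread of the main value, 39 moved and 2 turned direction. With cells thinned to 500 UMIs the Model to Control ratio was 1.44 for Ccl11, 20.8 for Ccl24, 9.59 for Ccr3, 5.19 for Il5ra and 0.512 for Siglecf. The thinned PD00 to Control ratio was 1.10 for Ccl11, 11.6 for Ccl24, 5.62 for Il5ra and 0.740 for Siglecf, and the thinned PD00 to Model ratio was 0.765 for Ccl11, 1.44 for Siglecf and, turning direction, 1.07 for Ccr3. With equal weight for each of 14 classes the Model to Control ratio was 4.25 for Ccl11, 4.69 for Ccl24, 1.04 for Ccr3, 1.49 for Il5ra and 0.771 for Siglecf. The PD00 to Control ratio was then 2.84 for Ccl11, 2.63 for Ccl24, 1.78 for Il5ra, 0.898 for Siglecf and, turning direction, 0.946 for Ccr3, and the PD00 to Model ratio was 1.16 for Siglecf. Scaling by the median of ratios gave Model to Control ratios of 2.77 for Ccl11 and 0.292 for Siglecf and a PD00 to Control ratio of 0.475 for Siglecf. At most 10% mitochondrial UMIs gave PD00 to Model ratios of 0.602 for Ccl24 and 1.77 for Siglecf, and for Siglecf a Model to Control ratio of 0.226 and a PD00 to Control ratio of 0.40. The cause of these shifts was not tested.

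Genes past 2-fold rested on the minimum of UMIs. With a minimum of 1 UMI, 2812 genes were higher and 3461 lower in Model than in Control, 1930 higher and 2252 lower in PD00 than in Model, and 2715 higher and 3414 lower in PD00 than in Control. With a minimum of 200 UMIs, 687 were higher in Model than in Control, 103 higher and 206 lower in PD00 than in Model, and 568 higher and 858 lower in PD00 than in Control, against 1072, 190, 486, 872 and 1389 with a minimum of 50. Of 282 values within classes or shares by class, 228 stayed and 54 moved. A share has no direction to turn, and of the ratios within classes 0 turned direction. Placing cells one by one moved 20 of 30 shares. Eosinophils are shallow and the 60 Control ones limit every comparison with Control in them.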

Other observations

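The eosinophils of Control were not the same as those of the other libraries in their granule genes. Prg2, the gene of major basic protein, had 1122 UMIs in PD00, 1188 in Model and 4 in Control eosinophils, with a UMI in 48.4% of PD00, 46.3% of Model and 5.0% of Control cells, and its Model to Control ratio was 17.6 (6.87 to 64.8). Ear1 stood at 94.5 CPM in PD00, 117 CPM in Model and 381 CPM (22 UMIs) in Control eosinophils. Ear6 stood at 69.0 CPM in PD00, 135 CPM in Model and 398 CPM (23 UMIs) in Control. In neutrophils Ear1 was at 29.4 CPM in PD00, 6.32 CPM in Model and 52.1 CPM in Control. Whether free RNA gave the Ear1 of eosinophils was not tested. Of 2904 genes in eosinophils, 15.4% were past 2-fold higher and 5.48% past 2-fold lower in Model than in Control. The minimum of 50 UMIs was over both libraries and Control had 60 eosinophils, so counting error in Control enters these shares. Alox15, a lipid-oxidizing enzyme, stood at 790 CPM in PD00, 857 CPM in Model and 485 CPM in Control. Ccr3, at 710 CPM in PD00, 782 CPM in Model and 780 CPM in Control eosinophils, did not share these differences in size. These genes are also among the markers that named the class, so the values describe it and carry no test.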
